A study of Schizosaccharomyces pombe with 12 samples.

Results

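The ntu1 deletion (ntu1_KO) was compared directly with the ntu2 deletion (ntu2_KO) of the fission yeast Schizosaccharomyces pombe, by poly(A)-selected RNA sequencing. The comparison uses 6 of the 12 libraries of the series, 3 per deletion, chosen by the genotype in their labels. It asks how alike transcript levels are when one or the other gene is missing, gene by gene, and which genes differ. The ntu1_KO cells are h+ ade6-M216 ura4-D18 leu1-32 with ntu1D::kanMX, and the ntu2_KO cells are h+ ade6-M216 ura4-D18 leu1-32 with ntu2D::kanMX. Both deletions thus carry the same mating type, adenine, uracil and leucine alleles and the same kanMX cassette. The h+ wild type of the same set (ntu_WT, 3 libraries) carries ade6-M210 and shared the fit of the spread between replicates. An h- wild type with ade6-704 (wt_WT, 3 libraries) entered 1 alternative fit and gave levels for some genes. Both wild types also carry leu1-32 and ura4-D18, and their labels give the same strain name. All cells grew exponentially in rich YES medium at 30 °C. The labels name 1 strain per deletion, so the deleted gene cannot be told apart from any other difference between the 2 strains. Nothing says that the 3 libraries of a group came from separate cultures, so p-values measure only the spread between these libraries.

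In the annotation ntu1 encodes a regulatory protein, and ntu2 a transcription factor tethered to a membrane. Membrane-tethered transcription factors are held in a membrane and act on genes once a part of them reaches the nucleus; in fission yeast the sterol-regulated factor Sre1, which is released by cleavage, is a known case. Among the genes described below, tna1 encodes the importer of nicotinic acid, a precursor of NAD. A difference test that finds nothing does not show likeness, so each gene was also tested for being held within a stated fold of equality.

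The deposited estimated counts summed to 5838314, 7501178 and 4709606 per library in ntu1_KO and to 3177147, 6156993 and 5854666 in ntu2_KO. The share of ribosomal RNA was 0.682% to 6.67% in ntu1_KO and 1.44% to 3.66% in ntu2_KO. The P-cell gene mat2-Pc had 171 counts over the ntu1_KO libraries and 117 over the ntu2_KO libraries, the M-cell gene mat1-Mc had 0 in both, and ura4 had 0 in both. Other listed markers did not split this way. The M-cell genes mam1, mam3, mam2 and mfm2 had 678, 963, 52 and 43 counts over the ntu1_KO libraries. Over the ntu2_KO libraries they had 555, 810, 41 and 29. The P-cell gene map3 had 426 and 329 counts in the deletions, and 547 in the h- wild type. The ntu2_KO libraries were not alike. Replicate 3 of ntu2_KO was nearer to each ntu1_KO library than to the other ntu2_KO libraries, with a median absolute log2 CPM difference (CPM, counts scaled to a common library total) of 0.0864 to 0.108 from the ntu1_KO libraries and of 0.143 and 0.155 from its own replicates. From the ntu_WT libraries, replicate 3 of ntu2_KO lay at 0.0895 to 0.1215, and replicates 1 and 2 at 0.107 to 0.161. The distances thus do not say which of the ntu2_KO libraries is unusual. These distances run over 4905 genes with a mean above 10 CPM. Over all 9 pairs of a ntu1_KO with a ntu2_KO library the distance was 0.0864 to 0.149 (median 0.118). Within ntu1_KO it was 0.0894 to 0.105 (median 0.0955), and within ntu2_KO 0.118 to 0.155 (median 0.143). With all libraries the distances across and within the deletions thus overlapped. Without replicate 3 of ntu2_KO they overlapped less. The 6 pairs across the deletions lay at 0.104 to 0.149 (median 0.135) and the 4 pairs within a deletion at 0.0894 to 0.118. Of the 6, 5 exceeded every distance between replicates. Replicate 3 was picked by these same distances, so leaving it out widens the gap by that choice and tests nothing. Results that rest on replicate 3 of ntu2_KO are given with and without it.

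**Figure D1:**
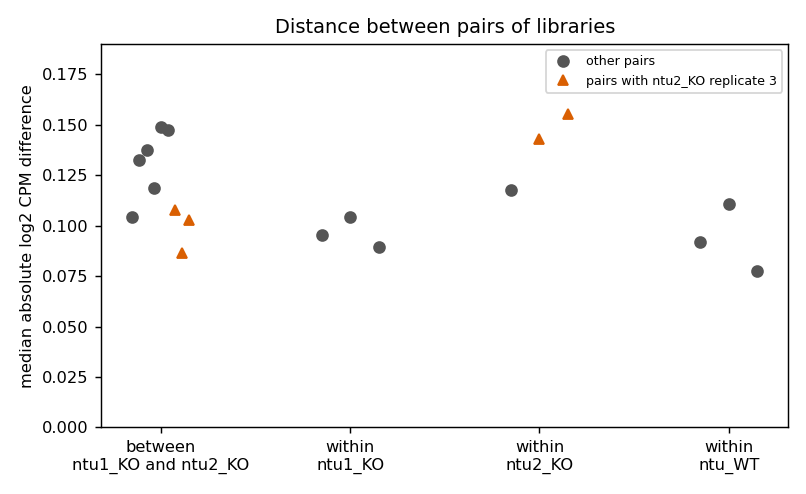
Distance between pairs of libraries: each point is 1 pair, the y axis is the median absolute log2 CPM difference over 4905 genes, and triangles are pairs that include replicate 3 of ntu2_KO. Pairs across the deletions spanned 0.0864 to 0.149, and the pairs within ntu2_KO that include replicate 3 lay at 0.143 and 0.155.

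Most tested genes were held within 1.5-fold of each other in the 2 deletions, and few were called different. The difference was estimated with edgeR's quasi-likelihood test as a log2 fold change of ntu1_KO over ntu2_KO, for 5808 of 6936 genes that passed a filter on low counts. A gene counts as called with a Benjamini-Hochberg adjusted p under 0.05 and at least a 2-fold difference. EdgeR called 6 genes, which is 0.103% of those tested: 2 were higher in ntu1_KO (0.0344%) and 4 were lower (0.0689%). Without the fold minimum the number was also 6. At an unadjusted p under 0.05 there were 387 genes (6.66%), 172 higher and 215 lower. The groups did not overlap, meaning that all 3 libraries of one deletion lay above all 3 of the other, for 595 genes (10.2%), 304 higher and 291 lower.

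The tests of equality gave large numbers. By 2 one-sided quasi-likelihood tests per gene, adjusted over all 5808 genes, 3154 genes (54.3%) were held within 25%, 4759 (81.9%) within 1.5-fold and 5412 (93.2%) within 2-fold. The 25% bound is symmetric on the log2 scale, at a difference of 0.322 either way. For 390 genes (6.71%) neither a call nor the 2-fold bound was reached, so the data leave them undecided. The median absolute difference was 0.08 on the log2 scale, or 1.06-fold, its 95th percentile was 0.43 and its 99th percentile 0.95. By the estimate alone, 5138 genes (88.5%) lay within 1.2-fold. The median half-width of the 95% interval was 0.21 on the log2 scale, which is 1.16-fold, so for the typical gene the error was larger than the difference itself.

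**Figure D2:**
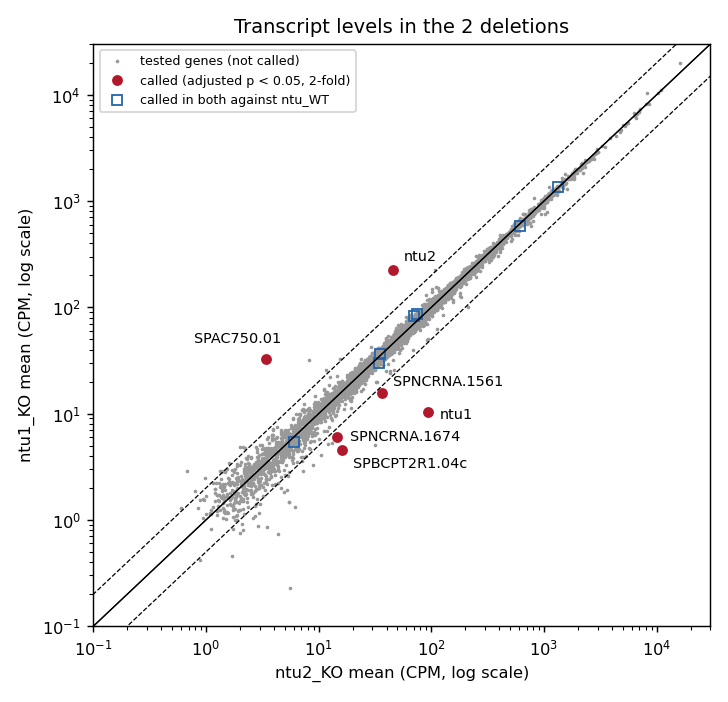
Mean level of each tested gene in ntu1_KO (y axis) against ntu2_KO (x axis), in CPM on log scales, with solid and dashed lines at equality and at 2-fold. The 6 called genes are red circles. The 7 genes called alike in both deletions against ntu_WT, a choice that favours likeness, are blue squares along the line of equality.

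How firmly a gene could be held depended on its level. In the lowest quintile of tested genes, at means of 1.24 to 16.2 CPM, the median half-width was 0.63 and 22.9% were held within 1.5-fold. In the next quintile, at 16.2 to 47.9 CPM, it was 0.28 and 92.8% were held within 1.5-fold. In the 3 upper quintiles the half-width was 0.14 to 0.20 and 97.6% to 98.3% of genes were held within that bound. The share held within 25% was 0%, 29.3%, 69.3%, 84.9% and 88% from the lowest to the highest quintile. Of the annotated classes, 91.8% of 4892 protein-coding genes (median level 77.1 CPM) were held within 1.5-fold, against 29.5% of 827 long non-coding RNAs (median level 5.80 CPM).

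**Figure D3:**
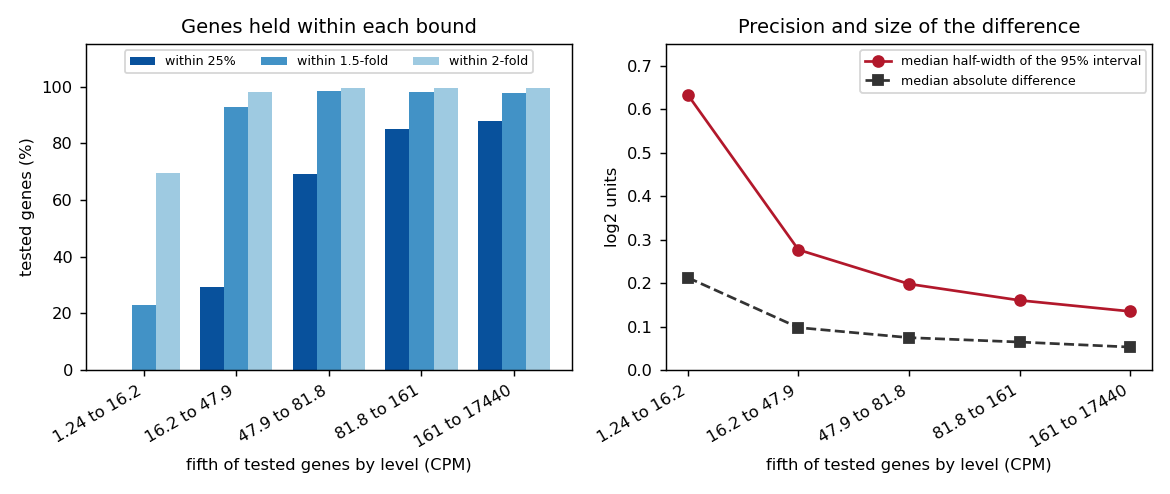
Left, share of tested genes held within 25%, 1.5-fold and 2-fold in each quintile of genes by mean level in CPM. Right, median half-width of the 95% interval and median absolute difference, both in log2 units, in the same quintiles; the half-width was 0.63 in the lowest quintile and 0.14 in the highest.

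The 10 protein-coding genes with the most TPM (a level corrected for transcript length) over the 6 libraries were also bounded. They encode 3 enzymes of glycolysis (gpm1, fba1, tdh1), a translation elongation factor (tef103) and 6 ribosomal proteins (rps7, rps13, rps21, rpl29, rpl3401, rpl35). The aldolase gene fba1 had 10400, 11320 and 11640 CPM in ntu1_KO and 10230, 11470 and 10810 CPM in ntu2_KO, so that its log2 fold change was 0.04 (95% interval -0.09 to 0.17). Of the 10 genes, 9 were held within 25%, the exception being rpl29. It had 657.5, 678.1 and 479.1 CPM in ntu1_KO and 649.6, 696.4 and 775.3 CPM in ntu2_KO. Its interval ran from -0.53 to 0.08, and it was held within 1.5-fold (edgeR equality test, adjusted p 0.0161).

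Each deleted gene was low in its own deletion. On chromosome II, ntu1 (SPBC16G5.16) had 12.2, 9.15 and 9.595 CPM in the ntu1_KO libraries and 97.2, 96.8 and 83.7 CPM in the ntu2_KO libraries, beside a mean of 92.4 CPM in ntu_WT. All 3 ntu1_KO libraries were low, and the ntu2_KO libraries lay at the wild-type level. This is a log2 fold change of -3.17 ± 0.11 (SE; adjusted p 2.96e-11 by edgeR). In turn ntu2 (SPBC530.08, also on chromosome II) had 247.5, 203.7 and 221.3 CPM in ntu1_KO and 46.7, 52.0 and 37.5 CPM in ntu2_KO, beside a mean of 217.2 CPM in ntu_WT. Here the ntu2_KO libraries were the low ones, without overlap, and the log2 fold change was 2.31 ± 0.11 (adjusted p 8.18e-08 in edgeR). The other deletion left each gene near the wild-type level: ntu2 had a log2 fold change of 0.04 ± 0.10 in ntu1_KO against ntu_WT, and ntu1 one of -0.002 ± 0.09 in ntu2_KO against ntu_WT. Counts that remained on a deleted gene may include reads of what lies outside the deleted part or on the other strand, since the sources used here give neither the extent of the deletions nor whether reads were counted by strand.

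Genes next to the deleted loci were not called between the deletions. Beside ntu1, the forkhead transcription factor gene fkh2 had a log2 fold change of -0.19 ± 0.09, SPBC16G5.17 of -0.05 ± 0.08 and the sterol reductase gene erg24 of -0.08 ± 0.08. Beside ntu2, clu1 had -0.02 ± 0.10, SPBC530.07c -0.13 ± 0.09, anc1 -0.12 ± 0.07 and mrl1, which overlaps ntu2 on the opposite strand, 0.02 ± 0.10. With the translation initiation factor gene prt1 (0.09 ± 0.09), all 8 were held within 1.5-fold by the edgeR equality test. The non-coding RNA SPNCRNA.1385, further along from ntu2, had 0.30 ± 0.37 and was held within 2-fold only.

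**Figure D4:**
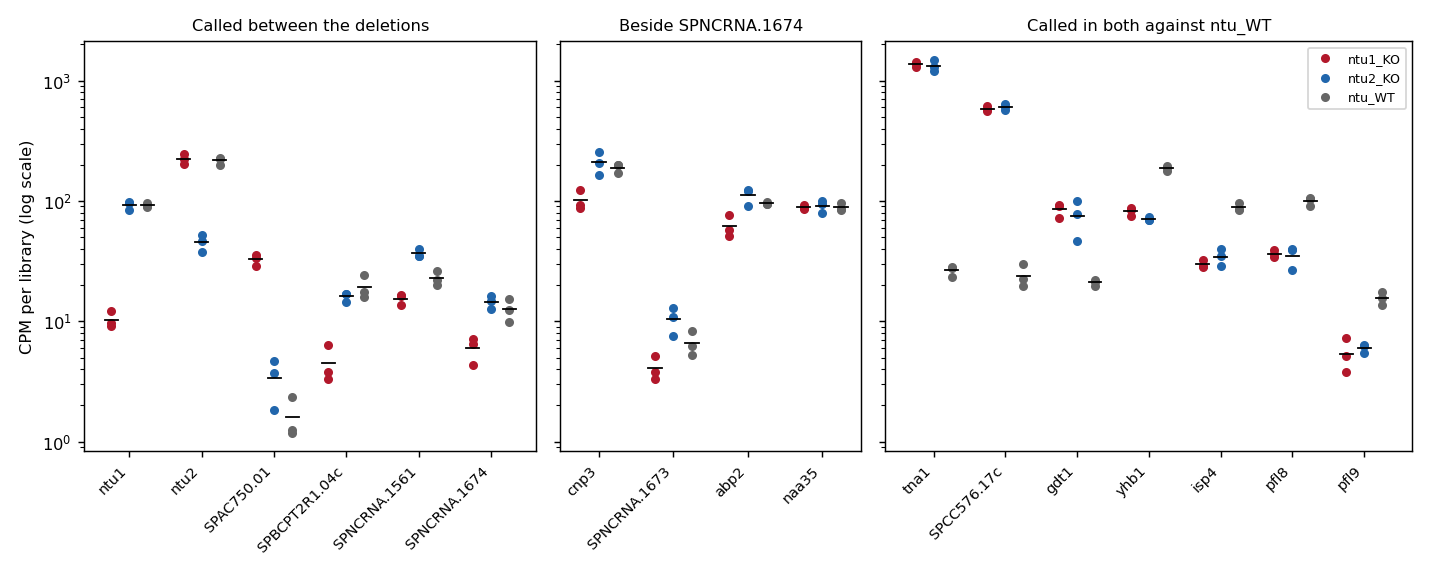
CPM in each library (log scale) for the 6 called genes, for 4 neighbours of SPNCRNA.1674 and for the 7 genes called alike in both deletions against ntu_WT; points are libraries of ntu1_KO, ntu2_KO and ntu_WT from left to right, and bars are means. The 6 called genes separate the deletions without overlap, while tna1 had 1294 to 1430 CPM in ntu1_KO and 1205 to 1485 CPM in ntu2_KO.

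Beyond the deleted genes, 4 genes differed. The largest difference was that of SPAC750.01 (chromosome I), annotated as an aldo/keto reductase, a family of enzymes that reduce aldehydes and ketones. It had 33.6, 29.0 and 35.7 CPM in ntu1_KO and 4.70, 1.82 and 3.71 CPM in ntu2_KO, beside a mean of 1.59 CPM in ntu_WT. Every ntu1_KO library stood above every ntu2_KO library, and the log2 fold change was 3.33 ± 0.27 (adjusted p 1.94e-06 in edgeR), a 10.1-fold difference (95% interval 6.81 to 14.9). On the TPM scale it had 33.6, 29.8 and 36.9 TPM in ntu1_KO, 4.90, 1.93 and 3.65 TPM in ntu2_KO and 17.1, 13.7 and 14.8 TPM in the h- wild type, which carries neither deletion. Of its 31-base sequences, 37.6% also occur in SPAC977.14c, so reads can be shared between them. That copy was held within 25%, with 1076, 1213 and 1104 CPM in ntu1_KO and 1059, 1124 and 1044 CPM in ntu2_KO (95% interval of the log2 fold change -0.05 to 0.20). The flanking genes of SPAC750.01 did not pass the count filter.

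SPBCPT2R1.04c (chromosome II), which also lies near a chromosome end and encodes an uncharacterized protein, was lower in ntu1_KO. It had 6.37, 3.79 and 3.34 CPM in ntu1_KO and 16.9, 14.5 and 16.9 CPM in ntu2_KO, beside 19.3 CPM in ntu_WT. The groups did not overlap, and the log2 fold change was -1.83 ± 0.25 (adjusted p 0.00154 in edgeR). Of its 31-base sequences 94.7% also occur in 6 other genes, so its count is uncertain as a measure of this copy. When all libraries were thinned to the smallest total, its adjusted p in edgeR was 0.203, and with limma on log2(TPM + 0.1) it was 0.0613.

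The other 2 called genes were non-coding RNAs of chromosome II, both lower in ntu1_KO, and neither has a function known from the annotation. SPNCRNA.1561 had 16.3, 13.6 and 16.5 CPM in ntu1_KO and 40.1, 34.7 and 35.1 CPM in ntu2_KO. Its mean of 22.7 CPM in ntu_WT lay between the deletions. On the TPM scale it had 12.8 to 15.1 in ntu1_KO and 31.55 to 38.1 in ntu2_KO. The wild types had 18.5 to 24.1 TPM (ntu_WT) and 28.8 to 32.1 TPM (the h- wild type). The log2 fold change between the deletions was -1.25 ± 0.14 (adjusted p 2.44e-04 in edgeR). Against ntu_WT, which both comparisons share, it was -0.57 ± 0.14 in ntu1_KO (adjusted p 0.111 in edgeR) and 0.68 ± 0.14 in ntu2_KO (adjusted p 0.0267 in edgeR). It overlaps SPNCRNA.1562 on the opposite strand, which had 4.07, 3.79 and 6.26 CPM in ntu1_KO and 5.02, 2.31 and 2.87 CPM in ntu2_KO and was not called. SPNCRNA.1674 had 7.08, 4.32 and 6.47 CPM in ntu1_KO and 12.5, 14.7 and 16.4 CPM in ntu2_KO, beside 12.6 CPM in ntu_WT. Its log2 fold change was -1.32 ± 0.23 (adjusted p 0.0325 in edgeR). This was the least firm of the 6 calls: over 22 alternative settings its adjusted p ran from 0.000604 to 0.309, and 5 of the 9 settings that left out 1 library lost the call. They were those without ntu1_KO replicate 2 (adjusted p 0.309 in edgeR), ntu1_KO replicate 3 (0.171), ntu2_KO replicate 1 (0.0637), ntu2_KO replicate 2 (0.112) and ntu_WT replicate 2 (0.111).

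Neighbours of SPNCRNA.1674 differed in the same direction, though none passed the test. These genes are named after their values were seen. The gene cnp3 encodes a CENP-C type protein of the inner kinetochore, which helps to build the centromere. It had 122.9, 88.1 and 92.0 CPM in ntu1_KO and 256.1, 208.4 and 165.2 CPM in ntu2_KO, beside a mean of 189.7 CPM in ntu_WT. The ntu1_KO libraries lay below all others, and the log2 fold change was -1.05 ± 0.19 (adjusted p 0.322 in edgeR). The gene abp2 encodes a protein that binds replication origins. It had 76.4, 51.5 and 57.4 CPM in ntu1_KO and 120.4, 123 and 91.1 CPM in ntu2_KO, giving a log2 fold change of -0.85 ± 0.15 (adjusted p 0.16 in edgeR). The non-coding RNA SPNCRNA.1673, which overlaps SPNCRNA.1674 on the opposite strand, had 5.13, 3.79 and 3.34 CPM in ntu1_KO and 12.9, 7.597 and 10.8 CPM in ntu2_KO (log2 fold change -1.32 ± 0.28, edgeR adjusted p 0.16). The next genes along the chromosome were alike. For naa35, a subunit of an amino-terminal acetyltransferase, the log2 fold change was -0.05 ± 0.09, and for the splicing factor gene prp24 it was 0.05 ± 0.13, and both were held within 25% (edgeR equality test, adjusted p 0.0117 and 0.0459). None of the 31-base sequences of cnp3, abp2, SPNCRNA.1673 or SPNCRNA.1674 occurs elsewhere.

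The calls for these neighbours depended on the test. The gene cnp3 was called with a replicate block on the 6 deletion libraries (adjusted p 3.47e-05 in edgeR), with DESeq2 (adjusted p 0.000223), with limma-voom, with an edgeR fit without robust estimation (adjusted p 0.0144) and with edgeR when replicate 3 of ntu2_KO was left out (adjusted p 0.0331). Over 22 alternatives its log2 fold change ran from -1.21 to -0.89 and its adjusted p from 3.47e-05 to 0.994. For abp2 the log2 fold change ran from -1.04 to -0.73 and the adjusted p from 1.14e-06 to 0.786; without ntu1_KO replicate 1 it was called, at -1.04 (adjusted p 0.000392 in edgeR). SPNCRNA.1673 was called with DESeq2 (adjusted p 0.0178) and in the edgeR fit of all 12 libraries (adjusted p 0.0472).

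None of the genes called alike in both deletions against ntu_WT was called between the deletions. Against ntu_WT, edgeR called 13 genes in ntu1_KO (0.224%), 5 of them higher (0.0861%) and 8 lower (0.138%). It called 9 genes in ntu2_KO (0.155%), 3 of them higher (0.0517%) and 6 lower (0.103%). These comparisons share the ntu_WT libraries, so the number of genes in both lists is not read as a result. For the 7 genes that both called with the same sign, the difference between the deletions was measured directly. Choosing genes this way favours likeness, so the values bound these 7 genes and speak for no others. The nicotinic acid transporter gene tna1 imports a precursor of NAD, on which fission yeast depends because it lacks the pathway that makes NAD from tryptophan. It had 1430, 1294 and 1366 CPM in ntu1_KO and 1205, 1485 and 1308 CPM in ntu2_KO, beside a mean of 26.5 CPM in ntu_WT. The deletions overlapped, and the log2 fold change between them was 0.03 (95% interval -0.13 to 0.19), held within 25% (edgeR equality test, adjusted p 0.00427). SPCC576.17c, annotated as a transporter of vitamin B6 forms, had 615.9, 560.0 and 583.6 CPM in ntu1_KO and 573.7, 645.1 and 603.0 CPM in ntu2_KO, beside 24.0 CPM in ntu_WT. Its difference of -0.05 (95% interval -0.24 to 0.14) was also held within 25% (edgeR equality test, adjusted p 0.0119). In the h- wild type tna1 had 14.9 to 38.0 TPM and SPCC576.17c 9.46 to 18.2 TPM. The libraries of the deletions had 841 to 1023 and 288.1 to 336.4 TPM.

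The other 5 shared genes were bounded less tightly. The cell surface glycoprotein gene pfl8 had 39.1, 34.1 and 36.5 CPM in ntu1_KO and 39.2, 40.0 and 26.5 CPM in ntu2_KO, beside 99.8 CPM in ntu_WT, and the direct difference was 0.07 (95% interval -0.22 to 0.36). The oligopeptide transporter gene isp4 had 32.2, 28.1 and 29.0 CPM in ntu1_KO and 34.8, 40.0 and 28.9 CPM in ntu2_KO, beside 88.4 CPM in ntu_WT, a difference of -0.22 (95% interval -0.48 to 0.04). Both were held within 1.5-fold, and in both the deletions overlapped. The nitric oxide dioxygenase gene yhb1, which detoxifies nitric oxide, had 87.6, 75.3 and 83.9 CPM in ntu1_KO and 73.4, 69.2 and 69.2 CPM in ntu2_KO, beside 186.7 CPM in ntu_WT. It was the only one of the 7 whose groups did not overlap. Its difference of 0.22 (95% interval 0.06 to 0.38; edgeR unadjusted p 0.0108, adjusted p 0.643) was held within 1.5-fold. For gdt1, a gene of the GDT1 family of membrane proteins, the libraries had 72.7, 91.3 and 93.2 CPM in ntu1_KO and 100.6, 46.9 and 77.4 CPM in ntu2_KO, beside 21.04 CPM in ntu_WT. With an interval of -0.35 to 0.81 it was held within 2-fold only. The same was true of pfl9, a DIPSY family glycoprotein gene, with 7.25, 5.10 and 3.76 CPM in ntu1_KO, 6.27, 5.45 and 6.41 CPM in ntu2_KO and an interval of -0.69 to 0.38. Without replicate 3 of ntu2_KO the log2 fold changes were 0.02 for tna1, -0.06 for SPCC576.17c, -0.12 for pfl8, -0.35 for isp4, 0.21 for yhb1, 0.29 for gdt1 and -0.10 for pfl9, and none was called. In the h- wild type, isp4 had 9.77 to 11.7 TPM, against 30.2 to 35.7 TPM in ntu_WT. For pfl8 these were 29.0 to 31.3 and 78.1 to 88.7 TPM, for pfl9 3.78 to 6.18 and 12.05 to 15.4 TPM. For gdt1 they were 123.1 to 131.6 and 22.3 to 26.2 TPM. For these genes the h- wild type lay nearer to the deletions than to ntu_WT, and for yhb1 between them (69.9 to 76.9 TPM). The deletions also differ from ntu_WT in the ade6 allele, and the cause of these differences was not tested.

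Genes that differed from ntu_WT in either deletion were held less often than tested genes in general. ntu_WT also carries another ade6 allele than the deletions. Apart from ntu1 and ntu2, 42 genes had an edgeR adjusted p under 0.05 in ntu1_KO against ntu_WT and 43 in ntu2_KO against ntu_WT, or 58 in at least 1 of them. Of these 58, 25 were held within 25% of each other between the deletions, 42 within 1.5-fold and 50 within 2-fold, where 54.3%, 81.9% and 93.2% of all tested genes were held within these bounds. Their median absolute log2 difference was 0.15, against 0.08 over all tested genes. The 58 were chosen with the same deletion libraries, and passing in 1 deletion only favours a difference between the deletions. The lower shares are therefore partly set by the choice of genes. The 8 that were not held within 2-fold include the 4 called genes described above. The rest are SPNCRNA.781, SPAC186.04c, pep3-antisense-1 and cmt2, with log2 fold changes between the deletions of -1.45 ± 0.31, 0.95 ± 0.44, -0.69 ± 0.22 and 0.50 ± 0.32, with adjusted p in edgeR of 0.16, 0.736, 0.543 and 0.8. These 4 were not called and not held within 2-fold, so they remain undecided.

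By function, the lists were chosen by pathway, complex or word of the annotated product, and each is described by its counts and median. Over all tested genes the median log2 fold change was 0.0004. Every tested member was held within 1.5-fold in the lists for NAD synthesis and use (7 of 7), thiamine and vitamin B6 (11 of 11), purine synthesis (14 of 14), endoplasmic reticulum stress (17 of 17), silencing factors (27 of 27), histones (11 of 11), aminoacyl-tRNA synthetases (6 of 6), the proteasome (43 of 43) and mediator and chromatin complexes (73 of 73). The NAD list holds pnc1, nrk1, npt1 and qns1, and hst2, hst4 and sir2, which encode deacetylases that use NAD (sirtuins). The listed names nma1, nma2 and bna1 to bna6 matched no gene. Over all tested genes 81.9% were held within that bound, and 91.8% of protein-coding genes. These lists are named because all their members were held with all libraries. For the short ones that is little above the protein-coding share. Without replicate 3 of ntu2_KO the numbers held were 7, 10, 14, 15, 26, 11, 6, 43 and 71 in the same order. In that fit 4440 of 5861 tested genes were held. The endoplasmic reticulum genes dsc1 and gas2 were then lower in ntu1_KO, at -0.43 and -0.34 (edgeR adjusted p 0.0319 and 0.0226).

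Of the 9 genes listed for nicotinate and other vitamins (8 transporter genes and car1, annotated as arginase), 8 were held within 1.5-fold and none differed at an unadjusted p under 0.05 (median -0.05). Beside tna1 and SPCC576.17c they include the biotin transporter gene vht1, the pantothenate transporter gene liz1, the thiamine transporter gene thi9 and the vitamin B6 importer gene bsu1. The one not held was SPAC11D3.18c, annotated as a carboxylic acid transporter. It had 19.5, 25.1 and 23.2 CPM in ntu1_KO and 20.4, 17.8 and 17.04 CPM in ntu2_KO, which overlap, with a log2 fold change of 0.31 (95% interval -0.01 to 0.63). Of 17 genes for nitrogen sources and peptides, 14 were held within 1.5-fold (median 0.01). Those not held were the amino acid transporter gene isp5, the meiotic RNA-binding protein gene mei2 and the ammonium transporter gene amt3, with intervals of -0.34 to 0.84, -0.40 to 1.15 and -0.70 to 0.64. For mei2, a switch into meiosis, the spread lay within ntu2_KO, with 28.8, 44.4 and 79.5 CPM, against 59.6, 71.1 and 74.7 CPM in ntu1_KO.

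Of 16 genes for flocculins (cell surface proteins that bind cells together) and their regulators, 13 were held within 1.5-fold (median -0.06). At an unadjusted p under 0.05, 3 were lower in ntu1_KO and none higher, where 3.7% of all tested genes were lower at that threshold. They were pfl3 (-0.35 ± 0.15), pfl4 (-0.26 ± 0.12) and the regulator gene ldb1 (-0.23 ± 0.10), with edgeR adjusted p of 0.724, 0.736 and 0.709. For pfl3 the libraries had 40.9, 44.3 and 34.6 CPM in ntu1_KO and 65.5, 51.7 and 39.65 CPM in ntu2_KO. Without replicate 3 of ntu2_KO, a choice that favours more differences, pfl3 stood at -0.52 (adjusted p 0.0336 in edgeR). In that fit 6 of 16 were lower at an unadjusted p under 0.05 and none higher, where 8.86% of all tested genes were lower. The regulator gene mbx2, a MADS-box factor, had 23.4, 20.8 and 21.3 CPM in ntu1_KO and 22.6, 21.3 and 20.3 CPM in ntu2_KO, beside 30.97 CPM in ntu_WT, and was held within 25% (edgeR equality test, adjusted p 0.0361).

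**Figure D5:**
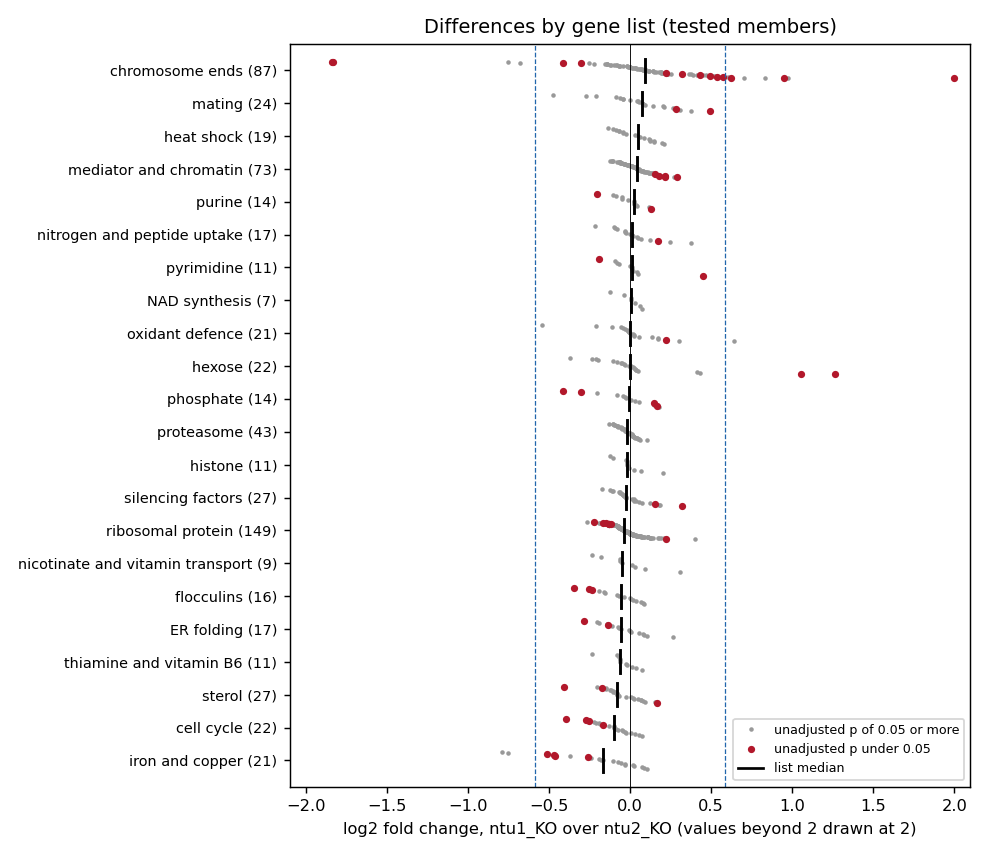
Log2 fold change of ntu1_KO over ntu2_KO for the tested members of 22 gene lists (number tested in brackets), ordered by list median (black bars). Red points have an unadjusted p under 0.05 and dashed lines mark 1.5-fold, and values beyond 2 are drawn at 2; the medians ran from 0.09 for genes near chromosome ends to -0.17 for iron and copper genes. The ribosomal protein list was matched by symbol and so also holds 3 antisense RNAs and the genes ubi4, rpp21, rpp40 and rpp1. The NAD synthesis list also holds the sirtuin genes hst2, hst4 and sir2.

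The list that stood lowest was that of iron and copper uptake. Of 21 tested members 5 were above 0, where 2911 of all 5808 tested genes were, and the median was -0.17. In the fit of all libraries 4 members were lower and none higher at an unadjusted p under 0.05, where 3.7% of all tested genes were lower and 2.96% higher, and none was called. They are fio1 and fip1, the copper oxidase and the permease that import iron together, and the siderophore transporter genes str1 and str2. Replicate 3 of ntu2_KO moved with this result. The gene fip1 had 102.2, 110.5 and 121.6 CPM in ntu1_KO and 166.8, 175.1 and 121.0 CPM in ntu2_KO. The gene fio1 had 34.7, 33.6 and 42.1 CPM in ntu1_KO and 48.6, 67.9 and 38.97 CPM in ntu2_KO. The gene str1 had 132.3, 114.7 and 139.5 CPM in ntu1_KO and 217.0, 194.5 and 126.5 CPM in ntu2_KO. In each of them replicates 1 and 2 of ntu2_KO lay above every ntu1_KO library and replicate 3 among them. The ferric reductase gene frp1, which reduces iron for uptake, had 28.1, 19.7 and 26.9 CPM in ntu1_KO and 49.9, 58.5 and 20.9 CPM in ntu2_KO. The ntu_WT means of fip1, fio1, str1 and frp1 were 128.7, 44.55, 194.1 and 21.74 CPM. Against ntu_WT their log2 fold changes were -0.21, -0.29, -0.60 and 0.17 in ntu1_KO. In ntu2_KO they were 0.25, 0.22, -0.13 and 0.96. Lower in ntu1_KO here means relative to ntu2_KO.

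Without replicate 3 of ntu2_KO the number of genes that differ was larger. EdgeR then called 18 of 5861 genes (0.307%), among them the 6 called before. Without the fold minimum 81 genes (1.38%) had an adjusted p under 0.05, of which 34 were higher in ntu1_KO (0.58%) and 47 lower (0.802%). Of the iron and copper list 4 of 21 members passed, all lower in ntu1_KO: str1 at a log2 fold change of -0.68, fip1 at -0.62, frp1 at -1.15 and fio1 at -0.70, with edgeR adjusted p of 0.000284, 0.000388, 0.00339 and 0.042. Of the cell wall list 6 of 70 were lower and 1 higher. The lower ones include bgl2, gas2, gas5 and exg1, which encode glucanases and glucanosyltransferases that remodel wall glucan, at log2 fold changes of -0.45, -0.34, -0.31 and -0.33, with adjusted p in edgeR of 0.0268, 0.0226, 0.0279 and 0.0445. Of the sterol list 2 of 27 were lower, the sterol desaturase gene erg31 at -0.57 and the haem synthesis gene hem13 at -0.34 (edgeR adjusted p 0.0172 and 0.0445). For mating 2 of 24 were higher, the kinase gene byr1 of the pheromone pathway at 0.37 and mei2 at 0.84 (edgeR adjusted p 0.0319 and 0.0379). This fit compares 3 ntu1_KO with 2 ntu2_KO libraries and leaves out the library nearest to ntu1_KO, a choice that favours more differences. In it 4440 genes were held within 1.5-fold.

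Genes of the cell cycle also had a median below 0, at -0.10 over 22 tested members. At an unadjusted p under 0.05, 4 were lower in ntu1_KO and none higher, where 3.7% of all tested genes were lower: the replication licensing genes cdt1 (-0.40 ± 0.12) and cdc18 (-0.25 ± 0.11), the ribonucleotide reductase gene cdc22 (-0.27 ± 0.10) and the anaphase activator gene slp1 (-0.17 ± 0.08). None was called, with edgeR adjusted p of 0.543, 0.709, 0.665 and 0.736. The gene cdt1 had 43.5, 37.7 and 43.2 CPM in ntu1_KO and 58.3, 57.0 and 48.8 CPM in ntu2_KO without overlap, beside 36.8 CPM in ntu_WT. Against ntu_WT it had a log2 fold change of 0.17 ± 0.12 in ntu1_KO (adjusted p 0.978 in edgeR) and of 0.57 ± 0.12 in ntu2_KO (adjusted p 0.0307 in edgeR). The cell cycle list was measured in growing cultures, and the share of cells in each phase was not measured.

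Phosphate genes were split in direction, with a median of -0.01 over 14 tested members. The acid phosphatase gene pho1 had 804.5, 792.4 and 780.1 CPM in ntu1_KO and 875.7, 987.1 and 1299 CPM in ntu2_KO, and the phosphate transporter gene pho84 had 696.2, 607.1 and 624.9 CPM in ntu1_KO and 791.6, 766.3 and 819.6 CPM in ntu2_KO. Neither overlapped, and both were lower in ntu1_KO by the estimate, at -0.41 ± 0.13 and -0.30 ± 0.07 (edgeR adjusted p 0.643 and 0.168). The hydrolase gene aps1 and the polyphosphate synthesis gene vtc4 were above 0, at 0.17 ± 0.07 and 0.15 ± 0.07 (edgeR adjusted p 0.709 and 0.734). All of these but pho1 were held within 1.5-fold.

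Among hexose transporters, ght5 and ght1 stood out from a list median of -0.001 over 22 tested members. The high-affinity glucose transporter gene ght5 had 159.9, 248.3 and 264.3 CPM in ntu1_KO and 99.1, 84.2 and 139.0 CPM in ntu2_KO. All ntu1_KO libraries lay above the ntu2_KO libraries, with a log2 fold change of 1.05 ± 0.25 that was not called (adjusted p 0.543 in edgeR) but was called by DESeq2 (adjusted p 0.0113). Of its 31-base sequences 36.2% occur in other genes, including its paralogues ght1, ght6 and ght8. The paralogue ght1 had few counts, with 3.01, 4.71 and 6.88 CPM in ntu1_KO and 2.20, 1.65 and 2.19 CPM in ntu2_KO (1.27 ± 0.41, edgeR adjusted p 0.543).

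Genes of mediator and chromatin complexes had a median of 0.05. At an unadjusted p under 0.05, 5 of 73 were higher in ntu1_KO and none lower, where 2.96% of all tested genes were higher at that threshold. The largest difference was that of pmc4, a mediator subunit, with 58.7, 70.2 and 65.5 CPM in ntu1_KO and 52.7, 51.2 and 55.3 CPM in ntu2_KO, giving a log2 fold change of 0.29 ± 0.10 (adjusted p 0.618 in edgeR). Genes within 100 kb of the ends of chromosomes I and II had a median of 0.09 over 87 tested members. Of them 1 was called in each direction (SPAC750.01 and SPBCPT2R1.04c), 9 were higher and 4 lower at an unadjusted p under 0.05 (2.96% and 3.7% of all tested genes), and 39 were held within 1.5-fold. Of 45 lists with values per library, 3 had medians that did not overlap between the deletions (iron and copper, mediator and chromatin, and chromosome ends), where 10.2% of all tested genes did not overlap, so this count singles out no list. Without replicate 3 of ntu2_KO the medians were -0.16 for iron and copper, -0.14 for the cell cycle, 0.05 for mediator and chromatin and 0.11 for chromosome ends.

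Non-coding RNAs supplied 2 of the 4 genes that were called lower in ntu1_KO. Of 862 tested, 52 were lower and 25 higher at an unadjusted p under 0.05, where 3.7% of all tested genes were lower and 2.96% higher. The median was -0.02, and 253 were held within 1.5-fold. SPNCRNA.501 had 4.25, 2.48 and 3.55 CPM in ntu1_KO and 0 counts in all 3 ntu2_KO libraries. With the limit of 3 counts set over the group it was at least 17.3-fold higher in ntu1_KO, for counting error only. It was not called (adjusted p 0.648 in edgeR), and 1 ntu_WT library also had 0 counts, so a count of 0 also occurred in the wild type. SPNCRNA.501 was called in the fit of the 6 deletion libraries alone (adjusted p 0.00768 in edgeR), in that fit with a replicate block (adjusted p 0.0191) and in the fit without ntu_WT replicate 3, the library with 0 counts (adjusted p 0.0035). Few Tf2 retrotransposon and rRNA genes could be bounded: 1 of 8 and 0 of 6 tested members were held within 2-fold, with median half-widths of 1.28 and 2.01 on the log2 scale. The mitochondrially encoded genes cox1, cox2, cox3 and cob1 were not held either, within 2-fold, the widest interval being -1.63 to 1.94 (log2) for cox2.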

How the data were processed

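Poly(A) RNA was measured in 12 S. pombe libraries, made from 300 ng of total RNA with a stranded mRNA kit, per the labels' protocols. The authors deposited estimated counts per gene and TPM values; Salmon 1.9.0 and the build ASM294v2 are named in the submitters' processing notes. Of the non-zero deposited estimated counts 91.2% are not whole, so each was rounded, and no library total moved by more than 0.00271%. The sources used here do not say whether counting used strand, so overlapping genes on opposite strands may share reads. The deposited TPM values served as levels per length and in 2 alternative fits.

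The 9 libraries of ntu1_KO, ntu2_KO and ntu_WT were fitted together with edgeR 4.0.16 in R 4.3.3 (TMM scaling, a low-count filter with a minimum count of 10, robust quasi-likelihood), and p-values were adjusted by Benjamini-Hochberg over all tested genes. A call needs an adjusted p under 0.05 and a 2-fold difference. Standard errors come from the F statistic and 95% intervals from the t quantile. Equality was tested by 2 one-sided quasi-likelihood tests at a 25% difference, 1.5-fold and 2-fold. Shared sequence was counted as 31-base words found in other genes. The scripts were tested on simulated data.

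The genes named are ntu1 and ntu2, every called gene, up to 10 further genes per direction at an adjusted p under 0.05, genes called alike in both deletions against ntu_WT, the 10 protein-coding genes of highest TPM, and list members at an unadjusted p under 0.05 with the largest change per direction. All members of the vitamin, nitrogen and flocculin lists are included as well. Other genes are named after their values were seen. The members and the lists were chosen with earlier results of these data known. Gene names were matched to the reference annotation for all but 193 of 6936 genes. Alternatives covered scaling, the low-count filter, the libraries fitted, a replicate block, thinning to the smallest library, limma 3.58.1, DESeq2 1.42.0 and leaving out each library. Leaving out ribosomal RNA genes was chosen after seeing the data.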

Additional observations from a re-analysis of the deposited data

How the results depend on the processing

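The count of 6 calls ran from 4 (thinned to the smallest library) to 18 over 24 alternatives, and no called gene changed sign. Of 2391 single-gene values, called genes included, 84 took the other sign, and all 84 came from 27 genes that were not called. Among these genes were tna1 (-0.04 to 0.12), pfl8 (-0.12 to 0.20), gdt1 (-0.03 to 0.46) and pfl9 (-0.42 to 0.02). Of 854 list medians 65 took the other sign. ntu1, ntu2, SPAC750.01 and SPNCRNA.1561 were called in each of the alternatives. DESeq2 called 12 genes and gave 19 without the fold minimum, and limma on log2(TPM + 1) gave 10 without it. The cause of these differences was not tested. Thinning held 1974 genes within 25%. Leaving out 1 library gave 5 to 18 calls, 5 to 81 genes without the fold minimum, 2443 to 3163 genes held within 25%, 4440 to 4749 within 1.5-fold and 5250 to 5413 within 2-fold, with median half-widths of 0.2109 to 0.2431 (log2). The 18 calls and the 81 genes are those without ntu2_KO replicate 3, and without ntu1_KO replicate 1 the count without fold minimum was 18. Same-numbered deviations correlated at 0.227, -0.176 and 0.123, and differently numbered ones at -0.363 to 0.303. With 3 libraries per group these values cannot settle whether the replicate numbers pair the libraries. With a replicate block on the 6 deletion libraries there were 9 calls and 19 genes without the fold minimum. The same libraries without the block gave 7 calls and 7 genes without the fold minimum. Of 2391 single-gene values under alternatives, 2366 kept their side of the threshold, 11 lost a call and 14 gained one. Of 854 list medians, 39 moved by more than the spread between libraries. Genes in the lowest quintile by level are limited by depth.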
